A study of Zea mays with 6 samples.

Results

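The 8 genes described here belong to the assimilation of nitrate and ammonium: 2 nitrate reductase genes and 6 glutamine synthetase genes, chosen by identifier out of the 44146 genes listed per library. Zm00001d049995 and Zm00001d018206 were taken as nitrate reductases, Zm00001d026501 as the plastid glutamine synthetase GS2, and Zm00001d051804, Zm00001d017958, Zm00001d028260, Zm00001d048050 and Zm00001d033747 as cytosolic glutamine synthetases, GS1. These assignments come with the list. The deposited files give identifiers without names, and 0 of the 8 matched the gene table at hand, which belongs to another assembly. Coordinates and sequences are therefore not given.

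The libraries came from untreated maize seedlings with 3 leaves, from the sheath of leaf 2, and were read by RNA sequencing. Of the 6 libraries, 3 were wild type (WT) and 3 carried a knockout of the long noncoding RNA GARR2 (GARR2KO). The labels describe biological replicates under normal growth and give no inbred line, kind of mutation, number of lines or number of plants behind a library. Neither the GARR2 transcript nor markers of sheath tissue could be matched to an identifier, and these labels were not checked here. In bulk tissue, fewer cells of a type and less RNA per cell cannot be told apart.

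Nitrate reductase is the cytosolic enzyme that reduces nitrate to nitrite, and it is a regulated entry step of nitrate assimilation. Nitrite is reduced further to ammonium in plastids. Glutamine synthetase joins ammonium to glutamate to make glutamine, the amino group donor for other nitrogen compounds. In leaves the plastid form, GS2, is known for taking up ammonium from nitrite reduction and photorespiration, while the cytosolic GS1 family is known for ammonium handling in vascular and other tissues and for moving nitrogen out of ageing leaves.

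All 8 genes were above the minimum of 1 FPKM, taken as a mean over the 6 libraries. They entered the test with 21531 genes in all. FPKM, the unit of the deposited values, is fragments per kilobase of gene, scaled by a total set for each library. In GARR2KO 5 of the 8 fell and 2 rose, and 1 did not pass (limma-trend on log2(FPKM + 1), Benjamini-Hochberg adjusted p under 0.05 over all tested genes, two-sided, n = 3 per genotype). Both nitrate reductases, GS2 and 2 of the GS1 genes fell, and another 2 GS1 genes rose. Calls were common in this comparison: 44.2% of all tested genes passed, 20.1% as rises and 24.1% as falls, so a call by itself sets a gene apart little. The median log2 fold change, GARR2KO over WT, was -0.40 over the 8 genes and -0.01 over all tested genes. For 7 of the 8 genes the values of the genotypes did not overlap, which was so for 56.2% of all tested genes. Only 1 of the 8, Zm00001d049995, changed by 2-fold or more in mean FPKM.

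**Figure D1:**
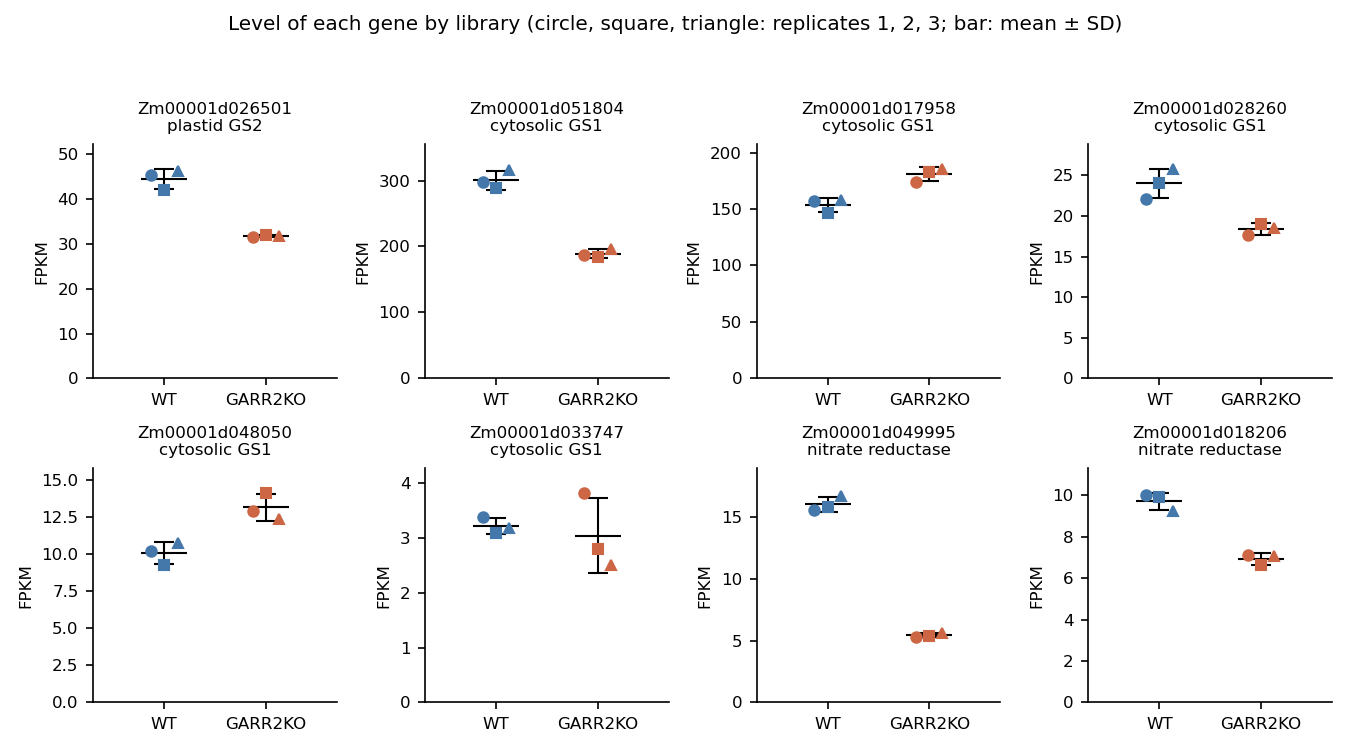
FPKM of each of the 8 genes (y axis, from 0, own scale per gene) in the WT and GARR2KO libraries (x axis); symbols are replicates and bars the mean ± SD of 3. The genotypes are apart in every panel but that of Zm00001d033747, whose WT values of 3.10 to 3.38 lie inside the GARR2KO range of 2.51 to 3.82.

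The nitrate reductase gene Zm00001d049995 showed the largest change of the 8. It stood at 15.59, 15.80 and 16.68 FPKM in WT replicates 1 to 3 and at 5.32, 5.40 and 5.63 FPKM in GARR2KO replicates 1 to 3. The 3 knockout libraries were close together and all lay far below the lowest WT library. Its mean fell from 16.0 ± 0.58 to 5.45 ± 0.16 FPKM (SD, n = 3), a 2.94-fold lower level. On the log2(FPKM + 1) scale the change was -1.40 (SE 0.057, 95% interval -1.53 to -1.27, adjusted p = 8.58e-07, limma). Of the tested genes, 183 (0.85%) had a lower log2 fold change than this gene. The values rest on 629 to 694 reads in a WT library and 213 to 231 in a GARR2KO library, recovered from the FPKM steps. Counting error alone amounts to 3.92% of the value in WT and 6.68% in GARR2KO. The spread between libraries was below that, at 3.59% and 2.91%, so the SDs may understate the error of these means. Because the added 1 FPKM compresses low values, the fold was larger with voom on the recovered reads, at -1.50 on the log2 scale (SE 0.088).

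The other nitrate reductase gene, Zm00001d018206, changed in the same direction by less. Its levels were 10.00, 9.90 and 9.25 FPKM in the WT replicates and 7.13, 6.62 and 7.06 FPKM in the GARR2KO replicates. The groups did not overlap: 2.12 FPKM lay between their nearest values, against a range of 0.75 FPKM within WT and 0.52 within GARR2KO. The mean fell from 9.72 ± 0.41 to 6.94 ± 0.28 FPKM (SD, n = 3), with a log2 fold change of -0.43 (SE 0.062, 95% interval -0.58 to -0.29, adjusted p = 0.000732, limma). Here too the spread between libraries, 4.20% in WT and 4.04% in GARR2KO, lay below the counting error of 5.21% and 6.13%. Among tested genes, 12.1% had a lower fold change than Zm00001d018206.

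The order of the nitrate reductases was exchanged between the genotypes. FPKM values are per length, so levels can be set side by side. In WT, Zm00001d049995 was the higher of the pair in every library, at 1.56, 1.60 and 1.80 times the level of Zm00001d018206. In GARR2KO it was the lower in every library, at 0.746, 0.816 and 0.797 times. The 2 genes summed to 25.60, 25.70 and 25.93 FPKM in the WT libraries and to 12.45, 12.01 and 12.69 in the GARR2KO libraries, means of 25.7 ± 0.17 and 12.4 ± 0.34 (SD, n = 3). Zm00001d049995 supplied 62.2 ± 1.8% of this sum in WT and 44.0 ± 1.1% in GARR2KO. These sums, ratios and shares were formed after the values had been seen and are given as descriptions, without a test.

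**Figure D2:**
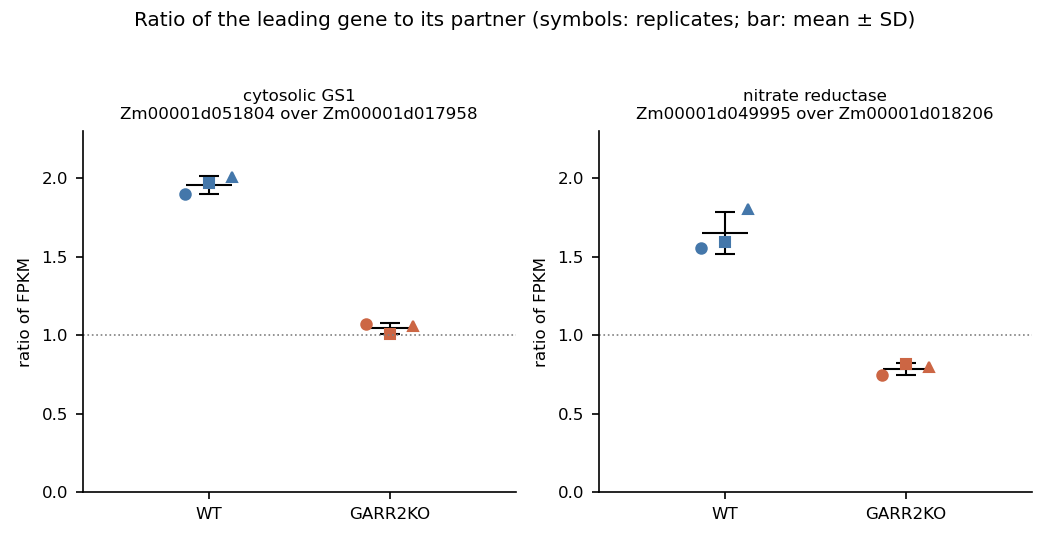
Ratio of FPKM (y axis, from 0) of the GS1 genes Zm00001d051804 over Zm00001d017958 (left) and of the nitrate reductases Zm00001d049995 over Zm00001d018206 (right) in each library, with mean ± SD of 3 per genotype. The GS1 ratio is 1.90 to 2.01 in WT and 1.01 to 1.07 in GARR2KO, and the nitrate reductase ratio passes from above 1 in every WT library to below 1 in every GARR2KO library.

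GS2, the plastid glutamine synthetase gene Zm00001d026501, was at 45.19, 41.89 and 46.25 FPKM in the WT replicates. In the GARR2KO replicates it was at 31.52, 32.05 and 31.70 FPKM. The knockout libraries spanned 0.53 FPKM, against 4.36 in WT, and all lay below the WT libraries. The GARR2KO spread of 0.85% was below the counting error of 2.3%, so its narrow span is not read as a trait of the genotype. The mean fell from 44.4 ± 2.3 to 31.8 ± 0.27 FPKM (SD, n = 3), by 28.6%, and the log2 fold change was -0.47 (SE 0.051, 95% interval -0.59 to -0.35, adjusted p = 0.000167, limma). Of all tested genes 10.7% had a lower fold change.

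Among the 5 cytosolic GS1 genes, the most abundant one fell. Zm00001d051804 was at 297.6, 288.2 and 316.5 FPKM in the WT replicates and at 186.8, 183.9 and 196.3 FPKM in the GARR2KO replicates, 6024, 5416 and 6015 reads in the latter. It was the highest of the 8 genes in mean level in both genotypes, and 98.5% of tested genes had a lower mean over the 6 libraries. The knockout values lay well below every WT value. The mean fell from 301 ± 14 to 189 ± 6.5 FPKM (SD, n = 3), with a log2 fold change of -0.67 (SE 0.052, 95% interval -0.79 to -0.55, adjusted p = 2.93e-05, limma). This was the largest change among the 6 glutamine synthetase genes, with 5.49% of all tested genes lower in fold.

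Zm00001d017958, the second GS1 gene in abundance, moved the other way. Its values were 156.8, 146.4 and 157.6 FPKM in WT and 174.0, 182.5 and 185.7 FPKM in GARR2KO. Every knockout library was above every WT library, with 16.4 FPKM between the nearest values. The mean rose from 154 ± 6.2 to 181 ± 6.0 FPKM (SD, n = 3), by 17.6%, with a log2 fold change of 0.23 (SE 0.050, 95% interval 0.12 to 0.35, adjusted p = 0.00574, limma). The rise is small, and 20.4% of tested genes had a higher fold change.

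Zm00001d048050, a GS1 gene of lower level, rose as well. It stood at 10.21, 9.23 and 10.75 FPKM in WT and at 12.90, 14.12 and 12.39 FPKM in GARR2KO, without overlap. The mean went from 10.1 ± 0.77 to 13.1 ± 0.89 FPKM (SD, n = 3), a rise of 30.5%, and the log2 fold change was 0.35 (SE 0.074, 95% interval 0.19 to 0.52, adjusted p = 0.00513, limma). It rests on 267 to 326 reads in a WT library and 365 to 400 in a GARR2KO library, where counting error alone amounts to 5.85% and 5.08% of the value. A higher fold change was found in 12.5% of tested genes.

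Zm00001d028260 fell. Its levels were 22.13, 24.08 and 25.78 FPKM in WT and 17.60, 19.05 and 18.46 FPKM in GARR2KO. All knockout values lay below the lowest WT value, with WT replicate 1 the nearest. The mean fell from 24.0 ± 1.8 to 18.4 ± 0.73 FPKM (SD, n = 3), by 23.4%, with a log2 fold change of -0.37 (SE 0.065, 95% interval -0.52 to -0.22, adjusted p = 0.00237, limma). A lower fold change was found in 15.4% of tested genes.

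Zm00001d033747 was the lowest of the 8 genes and the one that did not pass the test. Its values were 3.38, 3.10 and 3.19 FPKM in WT and 3.82, 2.80 and 2.51 FPKM in GARR2KO. GARR2KO replicate 1 was the highest of the 6 libraries and the other knockout libraries were the lowest, so the groups overlapped. Means were 3.22 ± 0.14 and 3.04 ± 0.69 FPKM (SD, n = 3), with a log2 fold change of -0.08 (SE 0.121, adjusted p = 0.643, limma). Its 95% interval of -0.35 to 0.20 reaches from a fall nearly as large as that of Zm00001d028260 to a rise nearly as large as that of Zm00001d017958. Reads numbered 85 to 136 per library, with a counting error near 10.0% of the value in GARR2KO, against a spread of 22.6% between those libraries. In WT the counting error was 9.64%, against a spread of 4.46%.

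**Figure D3:**
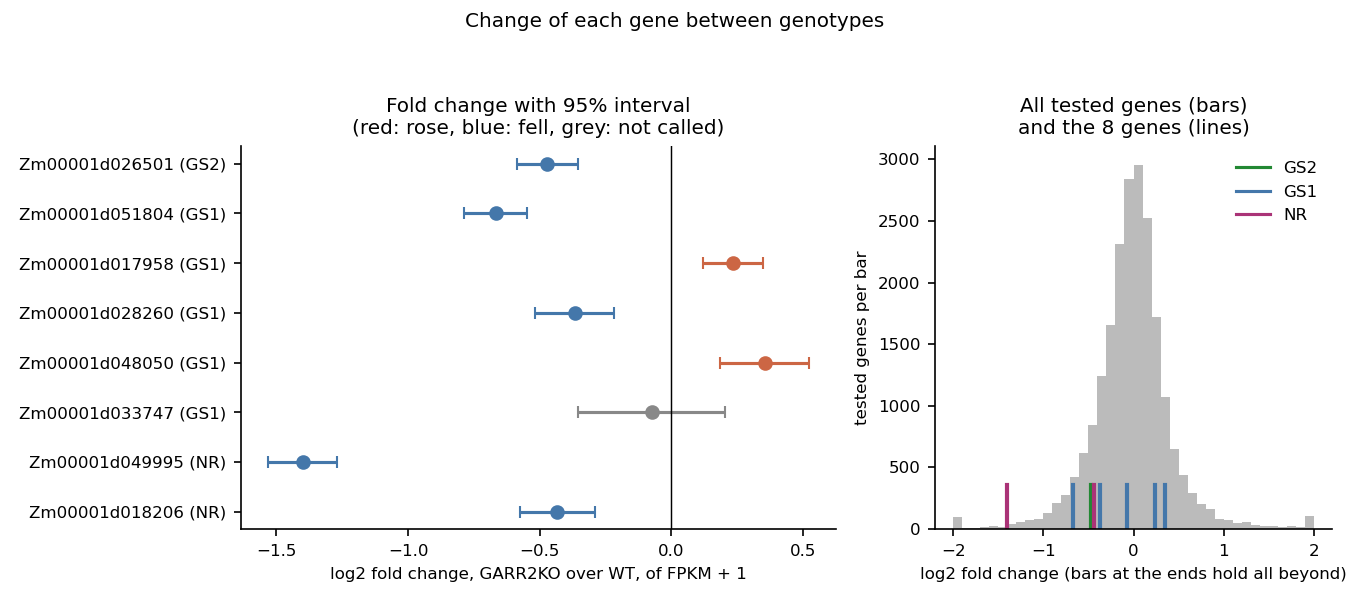
Left, log2 fold change of FPKM + 1, GARR2KO over WT (x axis), with its 95% limma interval for each gene (y axis); red rose, blue fell and grey did not pass. Right, the same fold changes (lines) over the distribution of the 21531 tested genes (grey bars, number of genes per 0.1). Zm00001d049995 at -1.40 lies in the lower tail. Zm00001d051804 at -0.67 lies on the lower shoulder, with 5.49% of tested genes lower, and the other glutamine synthetases lie nearer the centre.

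With the most abundant GS1 gene lower and the second higher, the make-up of the glutamine synthetase transcript pool differed between genotypes. Zm00001d051804 was at 1.90, 1.97 and 2.01 times the level of Zm00001d017958 in the WT libraries and at 1.07, 1.01 and 1.06 times in the GARR2KO libraries. The FPKM ranges of the pair were far apart in WT, whereas in GARR2KO they overlapped, at 183.9 to 196.3 and 174.0 to 185.7. Zm00001d051804 made up 56.1 ± 0.46% of the summed FPKM of the 6 glutamine synthetase genes in WT and 43.3 ± 0.88% in GARR2KO, while Zm00001d017958 made up 28.7 ± 0.58% and 41.4 ± 0.62% (SD, n = 3). The share of the pair together was 84.8% in both genotypes.

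The remaining shares were small. GS2 held 8.29 ± 0.14% of the pool in WT and 7.29 ± 0.17% in GARR2KO, without overlap. As a share of recovered reads, which also grow with gene length, GS2 held 13.7 ± 0.20% and 11.8 ± 0.26%. Zm00001d048050 held 1.88 ± 0.07% and 3.02 ± 0.24%, also without overlap. The shares of Zm00001d028260, 4.48 ± 0.30% and 4.21 ± 0.15%, and of Zm00001d033747, 0.602 ± 0.032% and 0.701 ± 0.174%, overlapped between genotypes.

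The pool itself was lower in GARR2KO. The 6 glutamine synthetase genes summed to 535.3, 513.0 and 560.1 FPKM in WT and to 426.6, 434.4 and 447.1 FPKM in GARR2KO, a mean lower by 18.7%. The 5 GS1 genes alone were lower by 17.8%, at 492 ± 21 and 404 ± 10 FPKM (SD, n = 3). GS2 relative to the summed GS1 genes was 0.0889 to 0.0922 in WT and 0.0763 to 0.0798 in GARR2KO. The nitrate reductase sum was lower by 51.9%, so the nitrate reductase to glutamine synthetase ratio of summed FPKM was 0.0463 to 0.0501 in WT and 0.0277 to 0.0292 in GARR2KO.

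**Figure D4:**
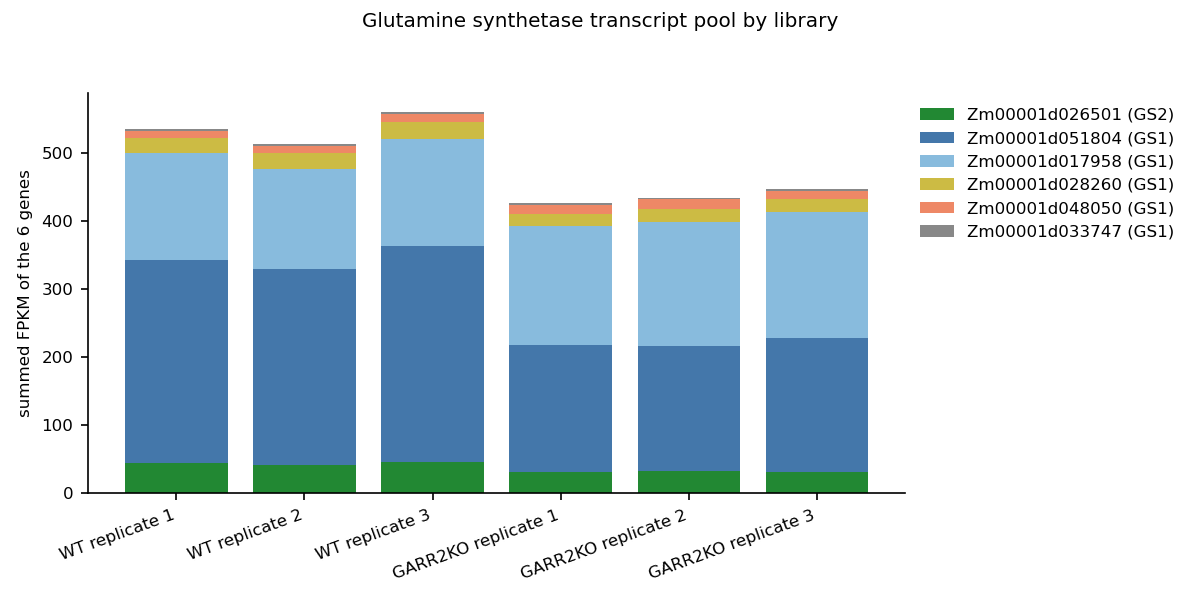
Summed FPKM of the 6 glutamine synthetase genes (y axis) in each library (x axis), stacked by gene. The WT columns reach 513.0 to 560.1 and the GARR2KO columns 426.6 to 447.1; the dark blue part, Zm00001d051804, is smaller in GARR2KO and the light blue part, Zm00001d017958, larger.

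By mean FPKM the order in WT was Zm00001d051804, Zm00001d017958, GS2, Zm00001d028260, Zm00001d049995, Zm00001d048050, Zm00001d018206 and Zm00001d033747. In WT, Zm00001d048050 at 9.23 to 10.75 FPKM and Zm00001d018206 at 9.25 to 10.00 FPKM did not differ beyond their spread. In GARR2KO the first 4 places were the same, followed by Zm00001d048050, Zm00001d018206, Zm00001d049995 and Zm00001d033747. The nitrate reductase Zm00001d049995 thus went from place 5 to place 7 among the 8.

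Between replicates, 5 of the 8 genes were lowest in WT replicate 2 among the WT libraries and 6 were highest in WT replicate 3. The summed FPKM of all genes had the same order, 633512 in WT replicate 2, 663643 in replicate 1 and 675513 in replicate 3, against 618107 to 625428 in GARR2KO. The scaling behind FPKM also differed by genotype: reads summed over the listed genes were 0.970 to 1.005 times the recovered scaling total in WT and 0.948 to 0.962 times in GARR2KO. Relative to the summed FPKM of each library, the glutamine synthetases were lower in GARR2KO by 14.0% and the nitrate reductases by 49.1%. All 7 calls held, in the same direction, without each library in turn and when libraries were scaled by summed gene reads.

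**Figure D5:**
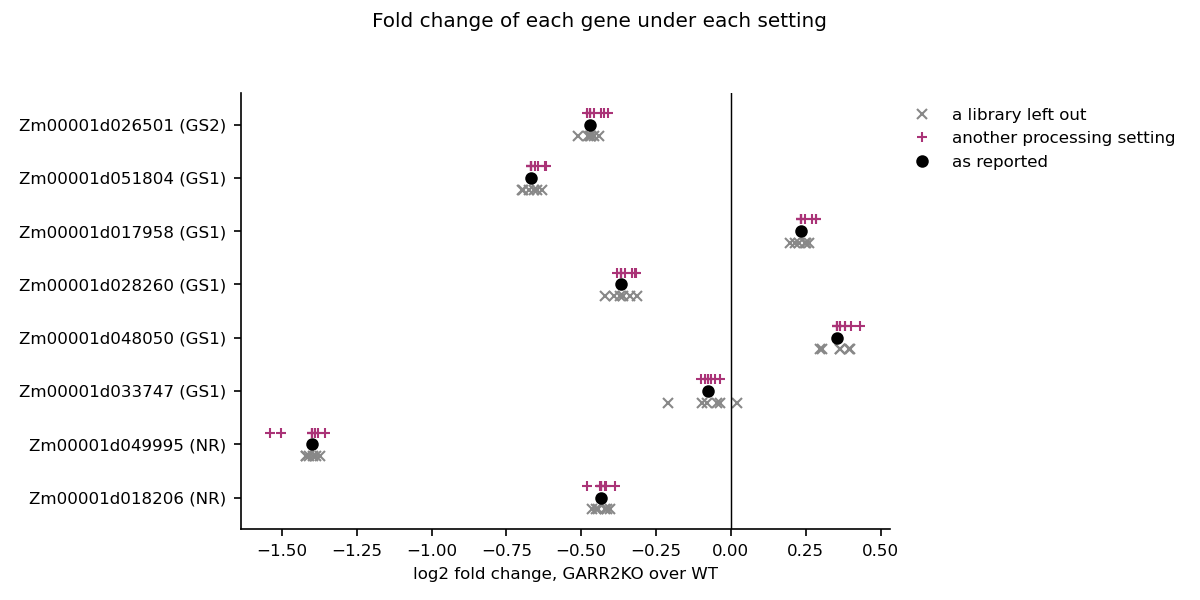
Log2 fold change, GARR2KO over WT (x axis), of each gene (y axis) as reported (black), with 1 library left out (grey crosses) and under other processing settings (purple). The 7 called genes stay on 1 side of 0 throughout, and Zm00001d033747 reaches both sides, from -0.21 to 0.02.

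The genes most like these in pattern were sought among all other tested genes by Pearson's r of log2(FPKM + 1) over the 6 libraries. For Zm00001d051804 the likest was Zm00001d019895 (r = 0.9991), at a mean of 151 FPKM in WT and 47.1 in GARR2KO, and for the nitrate reductase Zm00001d049995 it was Zm00001d004573 (r = 0.9998), at 25.0 and 0.419 FPKM. The second likest were Zm00001d020152 (r = 0.9990), at 22 and 15.2 FPKM, and Zm00001d018214 (r = 0.9998), at 128 and 81.9 FPKM. These fell by less than the likest genes, so a high r does not give the size of a change. The points share 6 libraries in 2 genotype groups, and r was above 0.99 for 278 and 495 genes. The files do not name these genes.

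Other steps of nitrogen assimilation, namely nitrite reductase, nitrate and ammonium transporters, glutamate synthase, asparagine synthetase and glutamate dehydrogenase, could not be matched to identifiers and are not analysed here. The GS1 genes are close relatives, as are the nitrate reductases. The sources used here do not say how reads matching several of them were assigned, and opposite changes of close relatives carry that uncertainty. Whole read numbers were found for all 8 genes, with 0.02 of a read as the limit set beforehand for accepting a number as whole.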

How the data were processed

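RNA sequencing libraries (150 bp paired-end) were processed by the authors into 1 table of FPKM per library, deposited without a header. TopHat2, Cufflinks, Cuffdiff and the build B73 RefGen_v4 are named in the submitters' processing notes, without versions, and the sources used here give no annotation or filters. The deposited values were taken as FPKM because of these tools; RPKM would look the same. Libraries were grouped by genotype from the labels' titles.

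From these values, log2(FPKM + 1) was fitted with limma-trend (limma 3.58.1, R 4.3.3), with genotype as the single factor, for genes whose mean reached 1 FPKM, with Benjamini-Hochberg adjustment over all 21531. To recover reads, a scaling total was first found for each library. For each gene the smallest whole length was then taken for which all 6 read numbers were whole. All 31076 genes above 0 came out whole, a share that is no test for genes seen in few libraries. The totals were chosen to make gene lengths whole, and 98.7% of 4313 gene lengths were. A common divisor of all 6 read numbers and the length would be lost. The WT libraries held 17748806 to 20719987 recovered reads and the GARR2KO libraries 17721430 to 19180036; a single read over 2 kb gave 0.0240 to 0.0283 FPKM. Whether reads or pairs were counted is not given, and counting errors cover counting only. Recovery and fit were tested on simulated data. P-values weigh the difference between genotypes against the spread between these libraries. In limma-trend the variance of each gene is drawn toward a trend with level over all tested genes.

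The genes named are the 8 listed ones and the 2 likest in pattern to the most abundant and to the most changed of them each. The members and lists were chosen with earlier results of these data known. Alternatives were other pseudocounts, filters, scalings, voom, robust moderation, a replicate block and leaving out libraries.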

Additional observations from a re-analysis of the deposited data

How the results depend on the processing

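The 7 calls kept their direction and stayed past the threshold under all 15 alternatives; the highest adjusted p of any of them was 0.0268, for Zm00001d017958 without GARR2KO replicate 3 (limma). The log2 fold of Zm00001d049995 ran from -1.54 to -1.36, that of Zm00001d051804 from -0.70 to -0.62 and that of Zm00001d017958 from 0.20 to 0.28. Zm00001d033747 passed under 0 of 14 alternatives (it was not tested at a minimum mean of 5 FPKM) and, with a library left out, ran from -0.21 without GARR2KO replicate 1 to 0.02, a change of sign, without GARR2KO replicate 3. As shares of recovered reads, which also grow with gene length, the glutamine synthetase pool in WT and GARR2KO was 13.7% and 11.8% Zm00001d026501, 49.4% and 37.5% Zm00001d051804, 31.0% and 44.1% Zm00001d017958, 3.70% and 3.42% Zm00001d028260, and 1.59% and 2.51% Zm00001d048050. The count of 9517 changed genes out of 21531 ran from 7318 to 10610. The lowest count came from the minimum mean of 5 FPKM, where only 14415 genes were tested, and the highest from voom on all 21531. Rises were 45.4% of calls on the deposited values, 50.4% after quantile normalization and 55.2% with voom, where the median fold of all genes was 0.04. The replicate numbers showed no pairing (correlation of deviations from the genotype means -0.051, -0.046 and 0.049 for numbers 1 to 3), and with a replicate block 8963 genes were called, 2 of the 8 rose and 5 fell. A growth or library batch shared by a genotype cannot be told apart from it, since the labels name 0 batches. Depth limits Zm00001d033747 most, at 85 to 136 reads per library.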
